A study of Homo sapiens with 6 samples.

Results

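The ETS factors studied here are 10 transcription factor genes grouped as downstream of extracellular signal-regulated kinase (ERK). They are *ETV1*, *ETV4*, *ETV5*, *ELK1*, *ELK3*, *ELK4*, *ETS1*, *ETS2*, *ELF3* and *EHF*, and a direct action of ERK on each of them is not implied. They were found in the deposited expression table by their gene symbols, and all 10 had a row among its 22807 genes. Each was compared between MDA-MB-453 cells after *DUSP6* siRNA (3 libraries) and after scrambled siRNA (3 libraries). MDA-MB-453 is an established HER2+ breast cancer cell line labelled wild type, and all 6 libraries came from this line, grown in RPMI with fetal bovine serum. By the study's description, the libraries of each group stand for different siRNAs, and the siRNA of each single library is not given in the sources used here. The p-values measure the spread between these libraries, which takes in any difference between siRNAs and may be in part technical.

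ETS proteins share a DNA-binding domain that recognises a GGAA core, and ERK phosphorylates several of them and thereby changes how strongly they activate their target genes. DUSP6 is a dual-specificity phosphatase of the cytoplasm that removes the activating phosphates from ERK, and *DUSP6* is itself a well-known target gene of ERK and ETS factors. Among ETS proteins, ETV1, ETV4 and ETV5 form the PEA3 group, ELK1, ELK3 and ELK4 are ternary complex factors that bind with serum response factor, ETS1 and ETS2 are the founding pair, and ELF3 and EHF belong to the epithelium-specific group.

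The siRNA target was examined first. Normalized values are CPM, reads relative to the size of the library, with that size adjusted by the trimmed mean of M values (TMM), and values per library are given in the order of replicates 1, 2 and 3. That of *DUSP6* was 209, 110 and 114 with scrambled siRNA and 39.4, 24.5 and 35.2 with *DUSP6* siRNA. The groups did not overlap, and the mean was 77.1% lower, so the transcript was reduced and not removed (log2 fold change -2.05, SE 0.25, limma adjusted p = 3.09e-04). In GENCODE annotation, 28.6% of the *DUSP6* exon bases are shared with a gene on the opposite strand, and counting with default settings does not use strand, so its value is uncertain. The libraries held 45546981 to 85729785 reads, and 1 read was worth a value of 0.0121 to 0.0202. Luminal epithelial markers were abundant, with a summed value of 4426 to 5875 with scrambled siRNA and 3269 to 3485 with *DUSP6* siRNA. Of these 10 markers, 7 were lower and 1 was higher, beside 24.7% and 19.7% of all genes tested. The leukocyte marker *PTPRC*, the endothelial markers *CDH5* and *KDR* and the basal keratins *KRT5* and *KRT14* all stayed below a value of 1 in every library. Other markers on these lists were present, since the basal marker *TP63* fell from 15.2, 8.14 and 6.97 with scrambled siRNA to 1.96, 1.37 and 1.95 with *DUSP6* siRNA (limma adjusted p = 3.39e-04). The macrophage marker *CD68*, which shares 85.6% of its exon bases with other genes, had values of 3.41 to 5.47 and was not called. Of the mesenchymal markers, *COL1A1* rose by 0.90 (limma adjusted p = 4.21e-04), and *COL1A2*, *PDGFRB* and *LUM* stayed below 1. The part of these marker changes in the results on ETS factors was not tested. All 16 tested genes of the interferon-stimulated list were higher with *DUSP6* siRNA, with a median log2 fold change of 5.80 and a summed value of 202 to 289 against 5226 to 6279, and the part of this response in the results on ETS factors was not tested.

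Of the 10 ETS factors, 9 had a mean value of at least 1 and were tested, all but *ETS1*. Here and throughout, limma was run on log2(value + 1) over all 12862 genes with such a mean, and a gene was called at a Benjamini-Hochberg adjusted p under 0.05. Fold changes are differences of these log2 values, and the added 1 understates the change of genes with low values. With *DUSP6* siRNA, *ETS2* and *ELK4* rose, *ELF3*, *ETV4* and *EHF* fell, and *ETV1*, *ETV5*, *ELK1* and *ELK3* were not called. Over all genes tested, 19.7% were called higher and 24.7% lower (44.5% in either direction), so 2 and 3 of 9 ETS factors are a share near that of genes at large. The same 5 genes were those whose groups did not overlap, which held in the higher direction for 26.7% and in the lower direction for 31.1% of all genes tested. The median log2 fold change of the 9 genes was -0.12, beside -0.01 for all genes tested. The ETS factors thus moved in both directions, and they are described by group. In this bulk RNA, fewer cells that express a gene and less RNA per cell cannot be told apart.

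**Figure D1:**
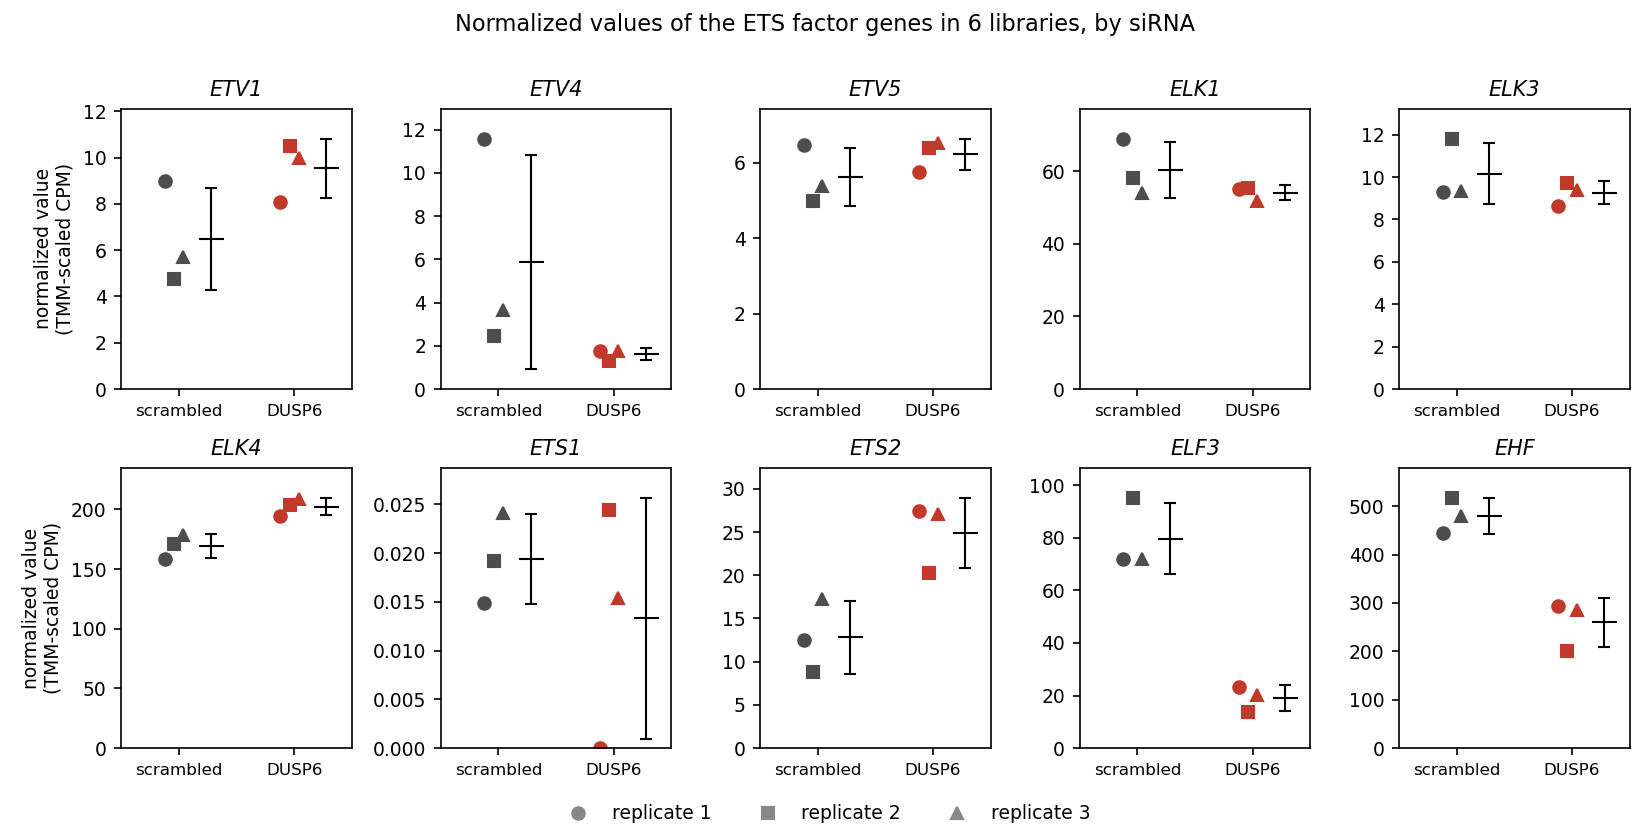
Normalized value (TMM-scaled CPM, y axis from 0) of the 10 ETS factor genes in each of 6 libraries, with scrambled siRNA in grey and *DUSP6* siRNA in red, a symbol for each replicate number, and a bar with the mean and SD of 3 libraries. The red points lie above the grey points for *ELK4* and *ETS2*, below them for *ETV4*, *ELF3* and *EHF*, and among them for the other five.

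The PEA3 group was expressed at low levels and its genes went apart. *ETV4* (Entrez gene 2118, GRCh38 chr17:43527846-43546340) had a normalized value of 11.6, 2.45 and 3.64 with scrambled siRNA and of 1.78, 1.28 and 1.75 with *DUSP6* siRNA. Scrambled siRNA replicate 1 stood far above the other libraries of its group, but all scrambled siRNA libraries were higher than all *DUSP6* siRNA libraries. *ETV4* fell by 1.18 on the log2 scale (SE 0.39, limma adjusted p = 0.0368), with mean values of 5.89 ± 4.96 and 1.60 ± 0.28 (SD, n = 3 each). The size of this fall rested on scrambled siRNA replicate 1, without which the log2 fold change was -0.63 (limma adjusted p = 0.0213), while edgeR on the reads gave -1.85. The call was lost without any 1 of the *DUSP6* siRNA libraries (limma adjusted p from 0.0697 to 0.129) and when no filter on low values was used (limma adjusted p = 0.0947).

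*ETV1* (Entrez gene 2115, chr7:13891229-13991425), known as a driver of androgen-dependent and of KIT-dependent tumors, had a normalized value of 8.99, 4.75 and 5.72 with scrambled siRNA and of 8.09, 10.5 and 10.0 with *DUSP6* siRNA. The groups overlapped only through scrambled siRNA replicate 1, which was above *DUSP6* siRNA replicate 1. The log2 fold change was 0.53 (SE 0.20) and *ETV1* was not called (limma adjusted p = 0.0572), with values from 0.35 (without scrambled siRNA replicate 2, limma adjusted p = 0.168) to 0.75 when 1 library was left out. It was called in 1 of these 6 fits, that without scrambled siRNA replicate 1 (limma adjusted p = 0.0061). *ETV5* (Entrez gene 2119, chr3:186046314-186109089), in many cells a direct readout of ERK activity along with *ETV4*, had values of 6.47, 4.98 and 5.40 with scrambled siRNA and of 5.76, 6.41 and 6.52 with *DUSP6* siRNA. These ranges lay within each other for the most part, and the log2 fold change was 0.13 (95% interval -0.14 to 0.41, limma adjusted p = 0.399). The difference between *ETV4* and *ETV5* within each library, in log2(value + 1), was 0.75, -0.79 and -0.46 with scrambled siRNA and -1.28, -1.70 and -1.45 with *DUSP6* siRNA. It was thus lower in every *DUSP6* siRNA library, with a mean shift of -1.31, and the difference between *ETV4* and *ETV1* shifted by -1.70 without overlap (two-sided exact permutation tests over 6 libraries, p = 0.1 for each, the smallest that 3 against 3 allows).

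Among the ternary complex factors, which sit with serum response factor on the promoters of immediate-early genes, only *ELK4* was called. *ELK4* (Entrez gene 2005, chr1:205607943-205632011) had a normalized value of 158.8, 170.7 and 178.7 with scrambled siRNA and of 194.5, 203.9 and 208.7 with *DUSP6* siRNA. All *DUSP6* siRNA libraries were above all scrambled siRNA libraries, by a small margin. *ELK4* rose 1.19-fold, with means of 169 ± 10.00 and 202 ± 7.21 (SD, n = 3 each), and the log2 fold change was 0.26 (SE 0.09, limma adjusted p = 0.0370). Under quantile normalization it was 0.44. The call was lost without scrambled siRNA replicate 1 (limma adjusted p = 0.0819), without any 1 of the *DUSP6* siRNA libraries (limma adjusted p from 0.0827 to 0.155), and when the variance was moderated without a trend (limma adjusted p = 0.0531).

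*ELK1* (Entrez gene 2002, chrX:47635520-47650604), the ternary complex factor best known as an ERK substrate, had values of 68.9, 58.0 and 54.0 with scrambled siRNA and of 55.2, 55.3 and 51.7 with *DUSP6* siRNA. *ELK3* (Entrez gene 2004, chr12:96194375-96269824), a repressor that ERK can turn into an activator, had values of 9.31, 11.8 and 9.36 with scrambled siRNA and of 8.65, 9.71 and 9.41 with *DUSP6* siRNA. For both genes the groups overlapped. Scrambled siRNA replicates 1 and 2 for *ELK1*, and replicate 2 alone for *ELK3*, were above all *DUSP6* siRNA libraries. The log2 fold change was -0.15 for *ELK1* (95% interval -0.39 to 0.09, limma adjusted p = 0.287) and -0.12 for *ELK3* (95% interval -0.39 to 0.16, limma adjusted p = 0.465). In every *DUSP6* siRNA library *ELK4* stood further above *ELK1* than in any scrambled siRNA library, by 0.40 in log2(value + 1) on average, and further above *ELK3*, by 0.37 (two-sided exact permutation tests over 6 libraries, p = 0.1 for each).

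The founding pair was made up of a gene that was barely detected and a gene that rose. *ETS1* (Entrez gene 2113, chr11:128458765-128587558), an activator known from lymphocytes, endothelium and invasive tumors, had 1, 1 and 2 reads with scrambled siRNA and 0, 2 and 1 with *DUSP6* siRNA. All 6 libraries lay below the 3 reads that a count of 0 allows, so no difference could be detected at this depth. *ETS2* (Entrez gene 2114, chr21:38805183-38824955), an activator that ERK phosphorylates next to its pointed domain, had a normalized value of 12.6, 8.78 and 17.2 with scrambled siRNA and of 27.4, 20.3 and 27.1 with *DUSP6* siRNA. The groups did not overlap, and *DUSP6* siRNA replicate 2, the lowest of its group, was above the highest scrambled siRNA library. *ETS2* rose 1.94-fold, with means of 12.9 ± 4.23 and 24.9 ± 4.04 (SD, n = 3 each), and the log2 fold change was 0.94 (SE 0.22, limma adjusted p = 0.0076). The call held under every alternative, and the log2 fold change was 0.71 to 1.16 when 1 library was left out.

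The epithelium-specific factors fell, and *ELF3* fell most of all 9 genes tested. *ELF3* (Entrez gene 1999, chr1:202010587-202017183), a regulator of epithelial differentiation that inflammatory signals also induce, had a normalized value of 71.8, 95.1 and 72.1 with scrambled siRNA and of 23.3, 13.8 and 20.1 with *DUSP6* siRNA. The highest *DUSP6* siRNA library was far below the lowest scrambled siRNA library. The means were 79.7 ± 13.4 and 19.1 ± 4.82 (SD, n = 3 each), a 4.18-fold fall, and the log2 fold change was -2.03 (SE 0.19, limma adjusted p = 7.02e-05). This call held under every alternative, with log2 fold changes from -2.18 to -1.82. In GENCODE, 18.5% of the *ELF3* exon bases are shared with other genes and 9.24% with *ELF3-AS1* on the opposite strand, so the value is uncertain to that extent.

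*EHF* (Entrez gene 26298, chr11:34621093-34663288), a close relative of *ELF3* that keeps glandular epithelium differentiated, had a normalized value of 443, 517 and 480 with scrambled siRNA and of 293, 201 and 286 with *DUSP6* siRNA. Again the groups did not overlap, and *DUSP6* siRNA replicate 2 was lowest. *EHF* fell by 45.8%, with means of 480.1 ± 36.7 and 260.1 ± 51.1 (SD, n = 3 each), and the log2 fold change was -0.90 (SE 0.15, limma adjusted p = 0.0013). The call held under every alternative, with log2 fold changes from -0.99 to -0.65. *ELF3* fell further than *EHF*, since the difference between these genes in log2(value + 1) was -2.61, -2.43 and -2.72 with scrambled siRNA and -3.60, -3.77 and -3.77 with *DUSP6* siRNA. No library of a group reached the other group's range (two-sided exact permutation test over 6 libraries, p = 0.1). Both genes fell in the same libraries in which 7 of 10 luminal epithelial markers were lower, among them *KRT19* (log2 fold change -1.81), *ERBB2* (-0.99), *FOXA1* (-0.79) and *GATA3* (-0.70), while *EPCAM* (0.12) and *CDH1* (0.00) were not called. The part of this marker change in the fall of *ELF3* and *EHF* was not tested.

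**Figure D2:**
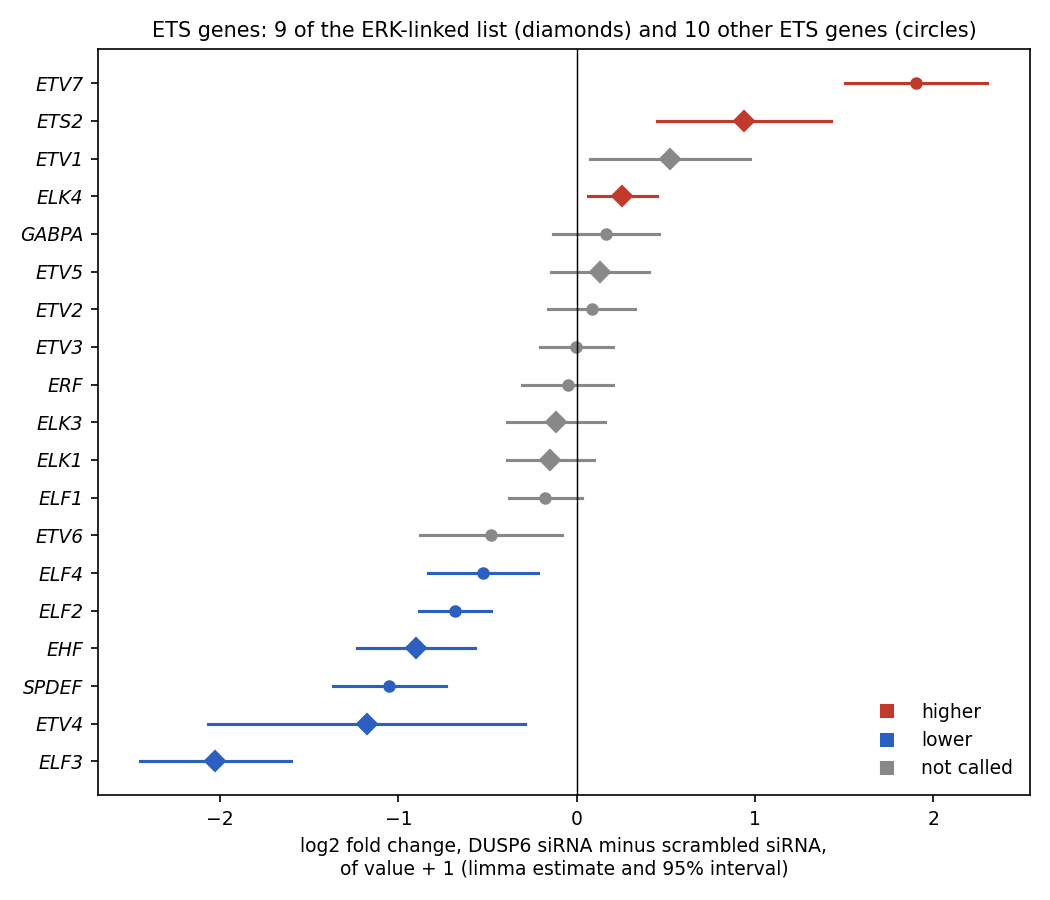
Log2 fold change of value + 1 (*DUSP6* siRNA minus scrambled siRNA, x axis) with its 95% interval from limma for the 9 tested ETS factors grouped as downstream of ERK (diamonds) and 10 other tested ETS genes (circles), with called genes in red (higher) and blue (lower). *ETV7* (1.90) and *ETS2* (0.94) stand at the top and *ELF3* (-2.03) and *ETV4* (-1.18, with the widest interval) at the bottom.

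The promoters of the ETS factors with a call are shown because their products bind GGAA and ETS genes are often regulated by ETS proteins. RefSeq promoter sequences (GRCh38.p14, 250 bases before to 50 after a start, written 5′ to 3′ on the gene's strand) were at hand for 7 of the 10 genes, and 4 of these were called. Capitals mark GGAA, or TTCC where the core lies on the other strand.
*ETS2*, chr21:38804933-38805232, plus strand: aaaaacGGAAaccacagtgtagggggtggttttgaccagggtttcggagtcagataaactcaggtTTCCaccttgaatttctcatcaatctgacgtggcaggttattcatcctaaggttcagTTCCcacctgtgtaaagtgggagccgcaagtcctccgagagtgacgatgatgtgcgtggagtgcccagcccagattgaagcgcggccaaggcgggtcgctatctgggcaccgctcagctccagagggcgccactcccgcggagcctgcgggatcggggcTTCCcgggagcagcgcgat
*ELK4*, chr1:205631962-205632261, minus strand: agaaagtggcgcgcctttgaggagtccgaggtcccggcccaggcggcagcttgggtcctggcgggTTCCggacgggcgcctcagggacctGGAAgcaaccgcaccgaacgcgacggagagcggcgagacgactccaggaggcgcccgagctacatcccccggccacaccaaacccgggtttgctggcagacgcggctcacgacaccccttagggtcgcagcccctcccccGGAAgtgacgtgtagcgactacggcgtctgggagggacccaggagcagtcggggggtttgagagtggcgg
*ELF3*, chr1:202010337-202010636, plus strand: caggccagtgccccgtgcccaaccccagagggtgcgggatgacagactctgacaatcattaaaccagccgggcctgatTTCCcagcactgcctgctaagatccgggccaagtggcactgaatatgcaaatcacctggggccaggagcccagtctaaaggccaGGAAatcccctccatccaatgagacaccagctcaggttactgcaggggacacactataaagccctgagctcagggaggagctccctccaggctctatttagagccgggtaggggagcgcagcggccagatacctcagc
*EHF*, chr11:34624007-34624306, plus strand: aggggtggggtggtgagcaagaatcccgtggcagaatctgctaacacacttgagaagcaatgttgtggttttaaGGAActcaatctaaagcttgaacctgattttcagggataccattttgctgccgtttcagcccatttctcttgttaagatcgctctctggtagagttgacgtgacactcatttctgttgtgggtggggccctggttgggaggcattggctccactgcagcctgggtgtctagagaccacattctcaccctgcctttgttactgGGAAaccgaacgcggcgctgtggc

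The promoter of *ETS2* held 4 matches to the core, that of *ELK4* 3, and those of *ELF3* and *EHF* 2 each. The *EHF* window (from 34624007) lies inside the gene, whose first base is 34621093, so it belongs to an internal start. The *ETS2*, *ELK4* and *ELF3* windows lie at the outer start of their genes. Among the genes without a call, *ETV1* had 5, *ELK1* 4 and *ELK3* 2, so the number of matches did not separate called from other genes. The core is short, and 95.5% of 35116 RefSeq promoters held it on either strand, with a median of 3 matches. The longer match CCGGAAG, searched on both strands, was present in 10.3% of promoters and, of these 7 genes, in *ELK4* alone, where it starts 22 bases before the start and takes in the last GGAA of the printed sequence. The *ETV1*, *ELK1*, *ELK3*, *ELK4*, *ETS2*, *ELF3* and *EHF* windows had no match on either strand to the AP-1 motif TGANTCA (7.71% of all promoters), to the CIC motif TGAATGAA or TGAATGGA (2.63%) or to the CArG box of serum response factor (1.29%). A match is a description of the letters and does not show binding.

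Levels were compared between ETS genes per kilobase of the canonical GENCODE transcript, which is only close to the RefSeq models that the reads were assigned to. With scrambled siRNA, *EHF* led the 10 factors at 88.9 ± 6.80 (SD, n = 3) normalized value per kb, followed by *ELF3* at 25.7 ± 4.31, *ELK1* at 21.0 ± 2.67 and *ELK4* at 16.5 ± 0.97. The libraries of *ELF3* and *ELK1* overlapped, as did those of *ETS2* (3.50 ± 1.15), *ETV4* (2.52 ± 2.12) and *ELK3* (2.42 ± 0.34) in neighboring pairs, and those of *ETV5* (1.38 ± 0.19) and *ETV1* (1.00 ± 0.34). *ETS1* was last at 0.0038 per kb. With *DUSP6* siRNA, *EHF* still led at 48.2 ± 9.47 (SD, n = 3), but *ELK4* (19.7 ± 0.70) and *ELK1* (18.8 ± 0.72), which overlapped, came next. *ETS2* (6.79 ± 1.10) was level with *ELF3* (6.14 ± 1.55) within their spread, and *ETV4* (0.69 ± 0.12) stood below *ETV5* (1.53 ± 0.10) and *ETV1* (1.48 ± 0.20) without overlap.

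Taken per kb over the 27 ETS genes of the table, *ELF3* went from rank 4 to rank 11, *ETV4* from 14 to 19, *ELK4* from 7 to 5 and *ETS2* from 13 to 9. The summed value per kb of the 27 genes was 435, 466 and 388 with scrambled siRNA and 293, 256 and 273 with *DUSP6* siRNA. The sum was lower in every *DUSP6* siRNA library, 0.638 times the scrambled siRNA mean (two-sided exact permutation test over 6 libraries, p = 0.1). *EHF*, *ELF3* and the luminal factor *SPDEF* made up 65.4% ± 2.57 of this sum with scrambled siRNA and 48.8% ± 2.91 after the knockdown (SD, n = 3 each). The share of *ELK1*, *ELK3* and *ELK4* was 9.31% ± 0.73 (SD, n = 3) and 14.9% ± 1.23 (SD, n = 3), again without overlap. These shares depend on each other, since a fall of the leading genes lifts the share of the rest.

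**Figure D3:**
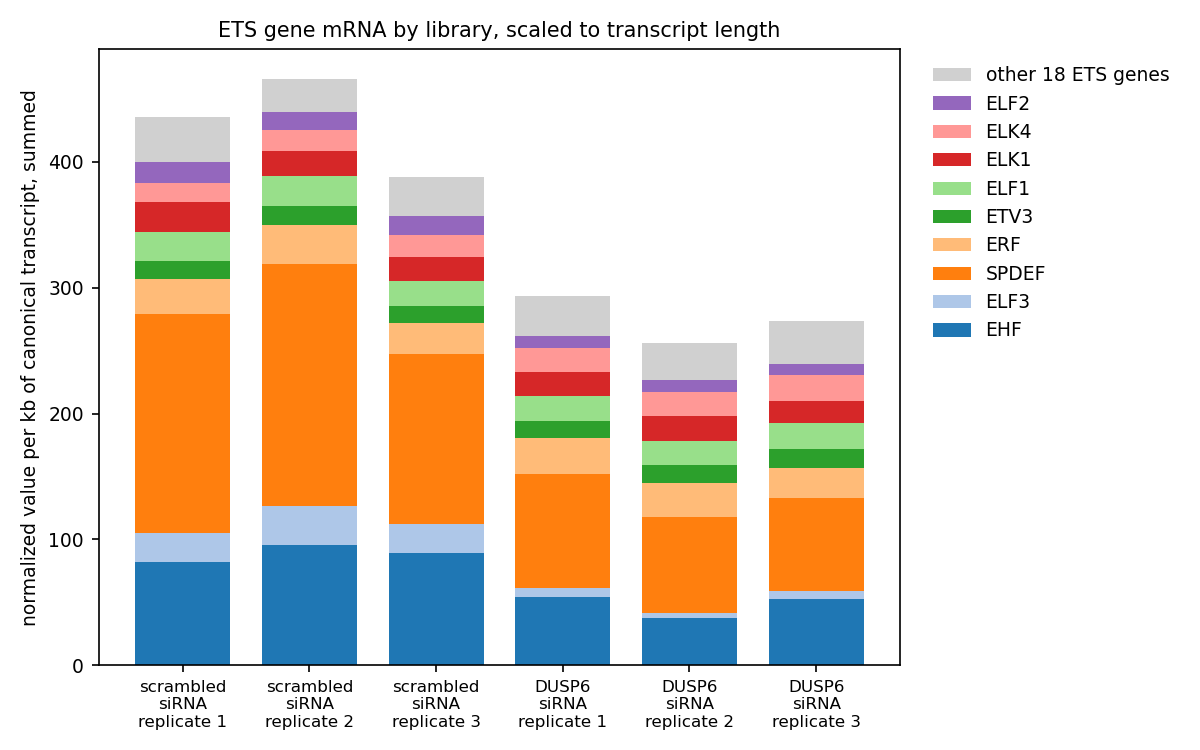
Summed normalized value per kb of canonical transcript (y axis from 0) of the 27 ETS genes in each of 6 libraries, with the 9 genes of highest value under scrambled siRNA in color and the other 18 in grey. The *DUSP6* siRNA bars are shorter (256 to 293 against 388 to 466), mainly through the *SPDEF*, *EHF* and *ELF3* segments.

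The remaining 18 genes with an ETS domain were read for comparison, of which 17 were in the table and 10 were tested. With *DUSP6* siRNA, *ETV7* was higher, *SPDEF*, *ELF2* and *ELF4* were lower, and 6 genes were not called, from *ETV6* (-0.48, limma adjusted p = 0.0508) to *GABPA* (0.16). Beside these counts, 19.7% of all genes tested were called higher and 24.7% lower. *SPDEF* (Entrez gene 25803), a factor of luminal and secretory epithelium, had values of 332, 368 and 258 with scrambled siRNA and of 172, 145 and 140 with *DUSP6* siRNA. It fell, and the log2 fold change was -1.05 (SE 0.14, limma adjusted p = 4.86e-04), close to that of *EHF*, and the difference between *EHF* and *SPDEF* within libraries shifted by 0.15 with overlap (two-sided exact permutation test over 6 libraries, p = 0.6). *ETV7* (Entrez gene 51513), a repressor that interferon induces, had 8 to 15 reads per library with scrambled siRNA and 187 to 289 with *DUSP6* siRNA. The normalized values were 0.208, 0.153 and 0.181 against 3.78, 2.29 and 4.47, a 19.4-fold rise of the mean. Its log2 fold change was 1.90 with a pseudocount of 1 (limma adjusted p = 7.38e-05) and 3.64 with a pseudocount of 0.1. The interferon-stimulated list was higher in the same libraries, as was any gene called higher. The part of the interferon response in the rise of *ETV7* was not tested. *ELF2* (-0.68) and *ELF4* (-0.53), broadly expressed activators, fell by less, and *ELF4* lost its call without *DUSP6* siRNA replicate 2 (limma adjusted p = 0.065). With 1 library left out, *ETV6* was called in 2 of 6 fits, and its values lay between -0.63 (without scrambled siRNA replicate 2, limma adjusted p = 0.0191) and -0.27 (without scrambled siRNA replicate 1, limma adjusted p = 0.0964).

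Genes that ERK signaling is known to raise were read beside the ETS factors, from a list of 16 that leaves out *DUSP6*. Of 15 tested, 8 were lower, 3 were higher and 4 were not called, with a median log2 fold change of -0.47. Among all genes tested, 24.7% were called lower and 19.7% higher, so the share of higher genes on this list was near that of genes at large. The other ERK phosphatases on the list were also lower, since nuclear *DUSP5* fell by 1.45 on the log2 scale (limma adjusted p = 1.03e-04) and nuclear *DUSP4* fell by 1.17 (limma adjusted p = 3.70e-04). *DUSP5* had values of 160, 111 and 147 with scrambled siRNA and of 54.55, 43.9 and 51.2 with *DUSP6* siRNA, without overlap. Among the feedback inhibitors of the receptor-to-RAS step, *SPRY4* (-1.25), *SPRED1* (-0.71) and *SPRY1* (-0.38) fell, whereas *SPRY2* rose by 0.98, with means of 2.73 ± 0.25 and 6.38 ± 0.63 (SD, n = 3 each). The members of the SPRY family thus moved in both directions.

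*EGR1*, an immediate-early transcription factor gene under serum response factor and ELK control, fell by 1.90 (SE 0.47, limma adjusted p = 0.0104). Its values were 221, 190 and 123 with scrambled siRNA and 87.95, 18.7 and 57.1 with *DUSP6* siRNA, spread widely within both groups. *CCND1*, which encodes cyclin D1, fell by 0.61 and the stress-response gene *IER3* by 0.47, but 38.9% of the *IER3* exon bases are shared with other genes. *EPHA4*, an ephrin receptor gene, rose by 1.01 (limma adjusted p = 1.11e-04) and *PHLDA1*, a pleckstrin homology-like domain gene, by 0.48. *MYC* was not called (-0.51, limma adjusted p = 0.139). Calls of *PHLDA1*, *SPRY1* and *IER3* were lost in 4, 3 and 2 of the 6 fits that left out 1 library, with limma adjusted p up to 0.106, 0.0969 and 0.0691, and *PHLDA1* and *IER3* lost theirs in 2 and 1 of the other alternatives. Leaving out 1 library gave between 6 and 10 lower genes, and quantile normalization moved *CCND1* to -0.37. Exon bases shared with other genes (10.4% for *CCND1* and 9.35% for *PHLDA1*) make these values uncertain.

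**Figure D4:**
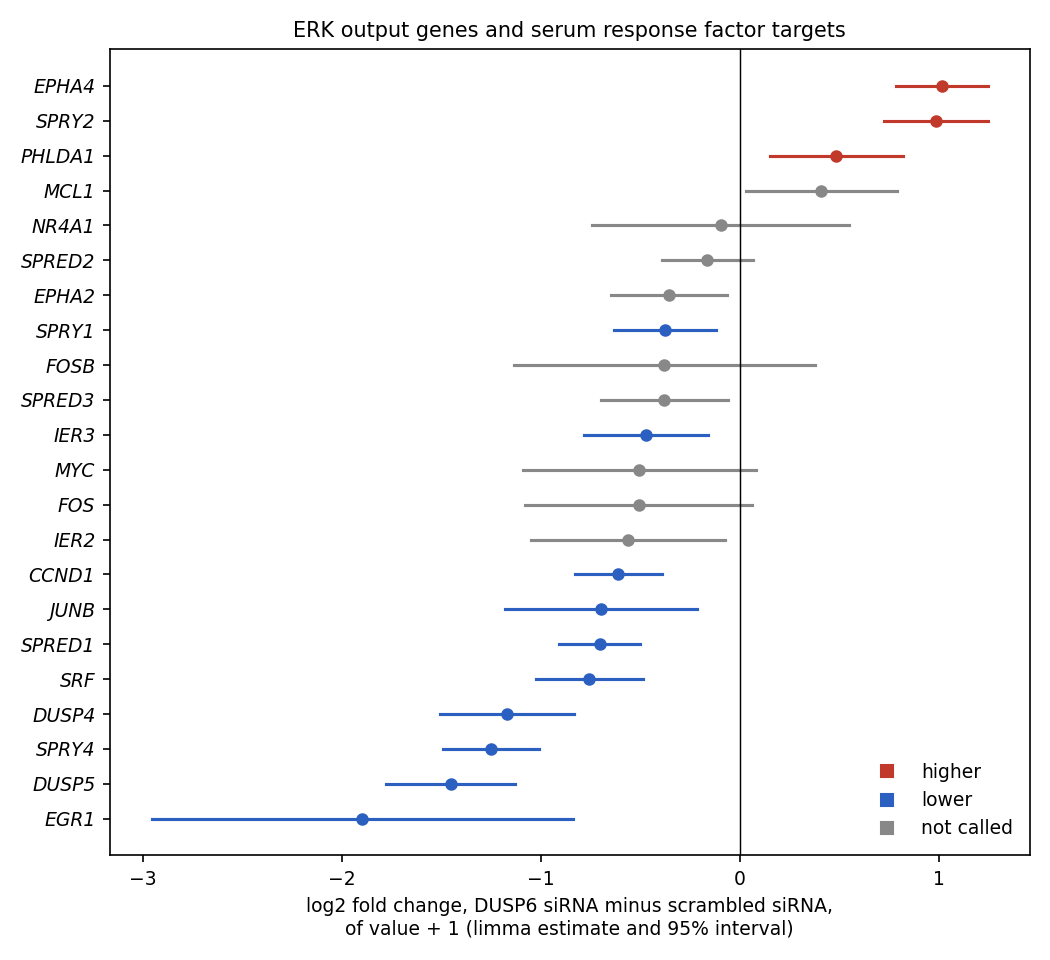
Log2 fold change of value + 1 (*DUSP6* siRNA minus scrambled siRNA, x axis) with its 95% interval from limma for the tested genes of the ERK output and serum response factor lists, with called genes in red (higher) and blue (lower) and other genes in grey. *EGR1* (-1.90) and *DUSP5* (-1.45) lie at the bottom, and *EPHA4* (1.01) and *SPRY2* (0.98) at the top.

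Serum response factor binds DNA together with ELK1, ELK3 or ELK4, and 10 of its best-known target genes were read as a list. Of 8 tested, 3 were lower, *EGR1*, *SRF* itself (-0.76, limma adjusted p = 0.0011) and *JUNB* (-0.70, limma adjusted p = 0.0257), and 5 were not called, from *IER2* (-0.56) to *MCL1* (0.41). None was called higher by limma, with 1 at an unadjusted p under 0.05, and edgeR called 0. The median was -0.53, and the shares of all genes tested were 24.7% lower and 19.7% higher. The value of *SRF* was 60.2, 52.5 and 64.7 with scrambled siRNA and 37.4, 30.1 and 36.2 with *DUSP6* siRNA, without overlap, while *ELK4*, 1 of its partners, rose. *FOS* (-0.51, limma adjusted p = 0.129) overlapped between groups, with its lowest value, 23.5, in *DUSP6* siRNA replicate 2. *JUNB* lost its call in 4 of the 6 fits that left out 1 library (limma adjusted p up to 0.0893) and in 2 of the 8 other alternatives (up to 0.0634), and *JUNB* and *IER2* share 14.2% and 52.2% of their exon bases with other genes.

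Of 19 genes for partners and regulators of ETS proteins, 18 were tested, 9 were lower, 2 were higher and 7 were not called, with a median log2 fold change of -0.37. The shares of all genes tested were 24.7% lower and 19.7% higher. *MAPK3*, which encodes the kinase ERK1, fell by 0.75 (limma adjusted p = 1.95e-04). *MAPK3* had values of 151, 158 and 149 with scrambled siRNA and of 92.1, 94.1 and 84.6 with *DUSP6* siRNA. The coactivator genes *EP300* (-0.61) and *CREBBP* (-0.60) and the corepressor gene *SIN3A* (-0.64) were all lower, and *EP300* moved to -0.36 under quantile normalization. *CIC*, which encodes a repressor of the PEA3 genes that ERK inactivates, had values of 88.6, 117 and 102 with scrambled siRNA and of 108, 97.8 and 90.7 with *DUSP6* siRNA. These overlapped, and its log2 fold change of -0.05 changed sign under quantile normalization (0.068). The partner genes of CIC went apart, since *ATXN1* fell by 0.87 (limma adjusted p = 0.0014) and *ATXN1L* rose by 0.34 (limma adjusted p = 0.0151).

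*GABPB1*, which encodes the partner subunit of the ETS protein GABPA, fell by 0.95 (limma adjusted p = 0.0030), with *GABPA* not called. Among genes for the turnover of ETS proteins, *TRIB2* (-0.45) and the ubiquitin ligase adaptor *SPOP* (-0.35) fell, and *COP1* (0.04) and *TRIB1* (-0.40) were not called. *MED23*, a Mediator subunit that ELK1 contacts, rose by 0.36. The calls of *MED23* and *SPOP* were each lost in 5 of the 6 fits that left out 1 library, *SPOP* also in 4 of the 8 other alternatives (adjusted p up to 0.131), and *MED23* in 1 of them. *TRIB2* lost its call in 3 of the 6 fits (limma adjusted p up to 0.104) and in 1 other alternative, and *ATXN1L* in 2 of the 6 (up to 0.068). Exon bases shared with other genes, 7.46% for *GABPB1*, 12.2% for *ATXN1L* and 6.88% for *SIN3A*, make these values uncertain. Without *DUSP6* siRNA replicate 2 or replicate 3, 0 of the list were called higher.

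The genes most like *ETS2* and *ELF3* over the 6 libraries were found from log2(value + 1), centred on the scrambled siRNA mean, by the root mean square distance among all genes tested. For *ETS2* these were *SRPRA* (distance 0.12, log2 fold change 0.94), which encodes a subunit of the signal recognition particle receptor, the proteasome activator gene *PSME2* (0.15 and 0.77) and the structure-specific endonuclease gene *SLX1A* (0.16 and 0.85). For *ELF3* they were the protease gene *TMPRSS13* (distance 0.11, log2 fold change -1.94), *AHNAK* (0.12 and -2.04), which encodes a giant scaffold protein, and the pseudogene *CYP4Z2P* (0.12 and -1.92). *SLX1A* and *CYP4Z2P* have near-identical copies in the genome, so their values are uncertain.

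*DUSP6* siRNA replicate 2, which had the lowest *DUSP6* value, was also the lowest of its group for *ETV4*, *ELF3*, *EHF*, *ETS2* and *ETV7*. Replicate 1 was lowest for *ELK4*, *ETV1*, *ETV5* and *ELK3*, and replicate 3 for *ELK1*, *SPDEF* and *ELF2*. Over the 24 genes called lower among the ETS, ERK output, serum response factor and partner lists, it was the lowest library of its group in 18, replicate 3 in 5 and replicate 1 in 1. Over the 8 called higher, replicate 2 was lowest in 5 and replicate 1 in 3. The lowest library was not counted over all genes tested, so these counts cannot be set against genes at large. A relation to the level of *DUSP6* was not tested. The siRNA and the library cannot be told apart here.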

How the data were processed

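RNA of 6 MDA-MB-453 libraries was prepared with the TruSeq Stranded mRNA kit. The authors used Rsubread with default settings for alignment (hg38) and for assigning reads to RefSeq gene models, and deposited 1 normalized signal value per gene and library. The submitters' processing notes name edgeR. Dividing each deposited signal value by a step particular to its library gave whole reads (100% of values, tolerance 0.001), and the steps were those of TMM scaling. Genes (12862 of 22807) whose mean was 1 or more were tested on log2(value + 1) with limma 3.58.1 in R 4.3.3, using a variance trend and Benjamini-Hochberg correction. It called 5719 genes, and edgeR 4.0.16 (quasi-likelihood) on the recovered reads called 5740. Both tools were tested on simulated data. Differences between pairs of genes and sums used exact permutation tests (scipy 1.17.1, two-sided). They reuse the values behind the calls and are no separate support for them. Exon overlap and transcript lengths came from GENCODE 44, positions and promoters from RefSeq. All 10 ETS factors, *DUSP6*, called genes of the lists and the 3 nearest profiles of the largest rise and fall were named. The genes and lists were chosen with earlier results of these data known. Intervals cover the spread between libraries only. Counting error is small at this depth except for tested genes with few reads in a group, such as *ETV7* with 8 to 15 reads per scrambled siRNA library. The alternatives were another pseudocount, other filters, scalings and variance moderation, a replicate block, edgeR, and leaving out each library. The values of 1 gene of the partner list are not reported here.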

Additional observations from a re-analysis of the deposited data

How the results depend on the processing

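No ETS factor changed direction under any alternative. Over the fits of the 9 tested ETS factors, 110 kept the call or its absence, 10 lost a call (*ETV4* and *ELK4*) and 2 gained one (*ETV1*). The number of ETS factors called higher was 1 without a variance trend and 1 to 2 with a library left out, and 2 to 3 were lower. With a mean value of at least 10, fewer genes were tested, and 0 other ETS genes and 1 ERK output gene were called higher. Leaving out a library gave 2 to 5 other ETS genes lower, 2 to 4 serum response factor targets lower, 0 to 1 higher, and 0 to 2 partners higher and 7 to 11 lower. Under quantile normalization 1 serum response factor target was called higher, and *CIC* gave 0.068, with -0.15 to 0.049 when a library was left out. The cause of these shifts was not tested. The replicate numbers did not pair the libraries (correlations of same-numbered libraries 0.01, 0.09 and -0.08). With a replicate block, 2495 genes were higher and 3096 lower, 1 serum response factor target was higher and 5 were lower, *ELK4* was no longer called (limma adjusted p = 0.0666), *ETV1* (0.0456), *ETV6* (0.0183) and *MYC* (0.0061) were called, and *ETS2*, *ELF3* and *EHF* kept their calls. *ETS1* was too shallow for any test.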
